A study of Bos taurus with 18 samples.

Results

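The transcripts of 7 genes of steroid and prostaglandin synthesis, STAR, CYP11A1, HSD3B1, CYP17A1, CYP19A1, PTGS2 and PTGES, were followed in bovine blastocysts of both sexes. They were chosen by name, as the probe sets for which the array annotation lists one of these genes and no other, which gave 12 of the 24016 probe sets tested. CYP19A1 had 4 probe sets, PTGS2 had 3 and each of the other genes had 1. The blastocysts were of mixed breed, were produced in vitro with sex-sorted semen of 3 bulls and were frozen on day 7 after insemination. For each of 18 Affymetrix bovine arrays, 60 blastocysts of the same sex and bull were pooled and 50 ng of their total RNA was amplified. The 6 groups were females of bull 1, males of bull 1, females of bull 2, males of bull 2, females of bull 3 and males of bull 3, with 3 arrays each. No group was treated, so that females and males of the same bull are each other's controls.

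Steroid synthesis starts when STAR brings cholesterol to the inner mitochondrial membrane, where CYP11A1 cuts the side chain to give pregnenolone. HSD3B1 turns pregnenolone into progesterone, CYP17A1 leads from such steroids to androgens, and CYP19A1, the aromatase, turns androgens into oestrogens. PTGS2, the inducible cyclooxygenase, makes the prostaglandin precursor from arachidonic acid, and PTGES turns that precursor into prostaglandin E2. Early ruminant embryos are known to make steroids and prostaglandins, and both kinds of molecule act between the embryo and the uterus.

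Values are given on the log2 scale, on which a difference of 1 is a 2-fold change. Levels of different probe sets are not compared with each other, since each has its own probes. Array medians lay between 5.33 and 5.49. XIST, which silences 1 of the X chromosomes of females, stood at 8.87 to 9.57 on the female arrays by its brightest probe set. On the male arrays it stood at 5.93 to 7.28, so that all arrays labelled female lay above all labelled male. How pure each pool was for sex was not tested. A set of 4 arrays had a wide spread relative to the other arrays (0.267 to 0.349 log2, against at most 0.198): female bull 1 replicate 3, male bull 1 replicate 2, male bull 2 replicate 1 and male bull 3 replicate 3. The labels name no production or scan batch, and bull and batch cannot be told apart. Whether the pools of 1 group were made in different in vitro fertilisations is not stated either. The tests therefore measure no more than the spread from pool to pool, which may be technical.

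Females were compared with males over the 3 bulls first. CYP17A1, CYP19A1 and HSD3B1 were higher in female blastocysts, by 1.43-fold, 1.47-fold and 1.35-fold. STAR, CYP11A1, PTGS2 and PTGES did not pass the test, and PTGES had its higher means in males in each bull. By limma, with p-values adjusted by Benjamini-Hochberg over all probe sets, 3 of the 12 member probe sets passed, all 3 higher in females. Over all 24016 probe sets, 15.6% passed, 8.12% higher in females and 7.47% higher in males. Of the 9155 genes represented by their brightest probe set, 20.8% passed, 11.5% higher in females and 9.31% higher in males, beside 3 of the 7 genes described here. The median difference of the 7 genes was 0.31, and that of all genes was -0.01. Since the 7 genes were chosen with earlier results of these data known, these shares and medians are descriptions and do not test the set. None of the 7 genes lies on the X chromosome in the RefSeq table. In pools of whole embryos, fewer cells of a type and less RNA per cell cannot be told apart.

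**Figure D1:**
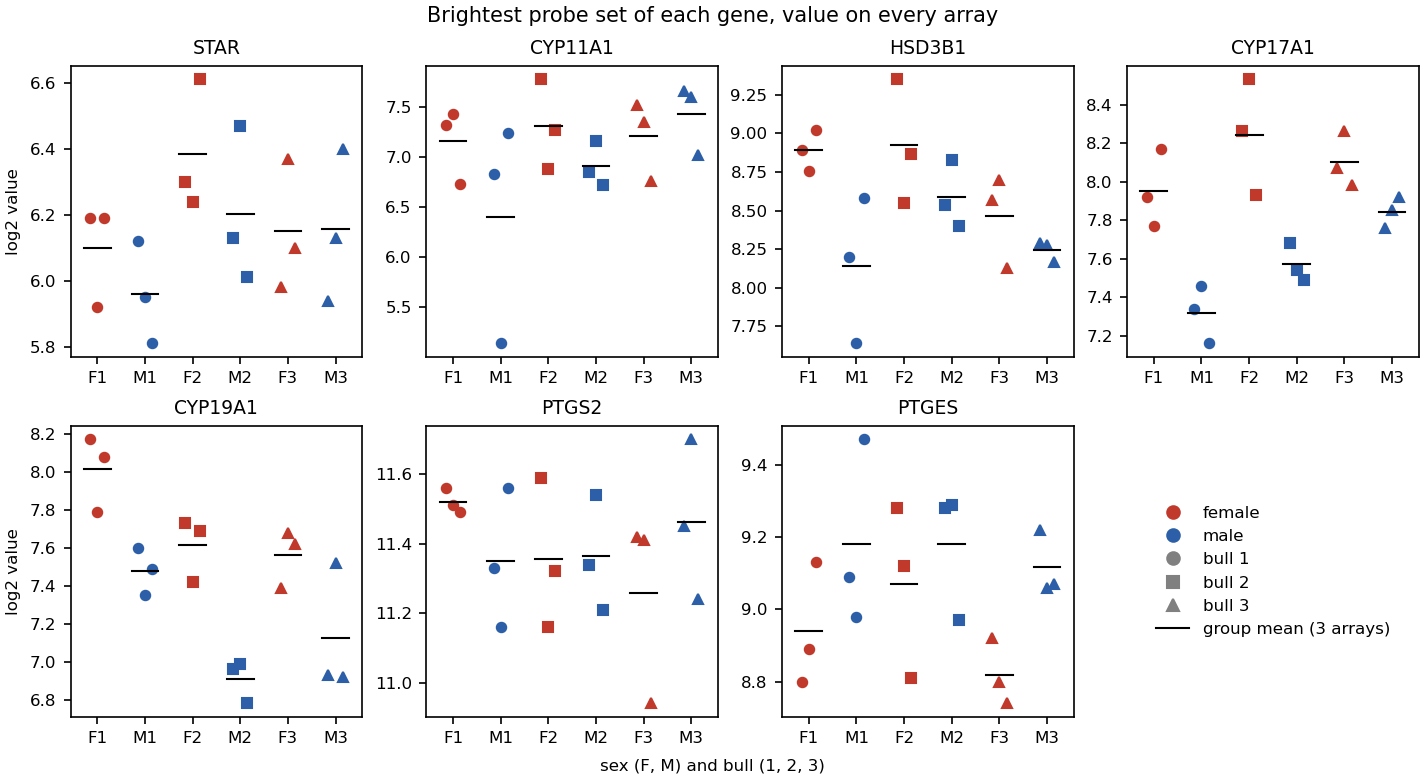
Log2 value of the brightest probe set of each gene on every array, by sex (F, M) and bull (1, 2, 3), with bars at the group means. CYP17A1 separates all females from all males in each bull, CYP19A1 does so in bulls 1 and 2, in PTGES all males of bull 3 lie above all its females, and in STAR and PTGS2 the sexes overlap in every bull.

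STAR, the cholesterol carrier of the first step, was measured by Bt.4709.1.S1_at. Its values in females were 6.19, 5.92 and 6.19 for bull 1, 6.30, 6.24 and 6.61 for bull 2, and 5.98, 6.37 and 6.10 for bull 3. In males they were 6.12, 5.95 and 5.81, then 6.13, 6.47 and 6.01, and then 5.94, 6.13 and 6.40. In order, the group means were 6.38 in females and 6.20 in males of bull 2, 6.16 in males and 6.15 in females of bull 3, and 6.10 in females and 5.96 in males of bull 1. All neighbours in that order overlapped. The sexes differed by 0.10 (SE 0.09, 95% confidence interval -0.08 to 0.29, adjusted p = 0.496, n = 9 arrays per sex). Bull 2 had the highest mean in both sexes, 0.26 above bull 1, which did not pass (adjusted p = 0.206).

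CYP11A1, the side-chain cleavage enzyme, had the widest spread of the 12 probe sets (Bt.7190.1.S1_at, residual SD 0.57). Its values were 7.32, 7.43 and 6.73 in females of bull 1, 7.77, 6.88 and 7.27 in those of bull 2, and 7.52, 7.35 and 6.76 in those of bull 3. Males had 6.83, 5.14 and 7.24 for bull 1, 6.85, 7.16 and 6.72 for bull 2, and 7.65, 7.60 and 7.02 for bull 3. The value of 5.14 belonged to male bull 1 replicate 2, one of the arrays of wide spread, and lay far below the next male value of 6.72. Females minus males gave 0.76 in bull 1, 0.40 in bull 2 and -0.22 in bull 3, with the sexes overlapping in each. The group means ran from 7.43 in males of bull 3 through 7.31, 7.21 and 7.16 in females of bulls 2, 3 and 1 to 6.91 and 6.40 in males of bulls 2 and 1, and all neighbours overlapped. Averaged over bulls, the difference was 0.31 (SE 0.22, 95% confidence interval -0.15 to 0.77, adjusted p = 0.412), and without male bull 1 replicate 2 it was 0.10. The interval includes both no difference and differences as large as those of the genes that passed.

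HSD3B1, which makes progesterone, was higher in females (Bt.4760.1.S1_at). Females had 8.89, 8.76 and 9.02 for bull 1, 9.35, 8.55 and 8.87 for bull 2, and 8.57, 8.70 and 8.13 for bull 3. Males had 8.20, 7.64 and 8.58, then 8.54, 8.83 and 8.40, and then 8.29, 8.28 and 8.17. All females of bull 1 were above all its males, as for 8.08% of all probe sets, while the sexes overlapped in bulls 2 and 3. The females of bulls 2 and 1 had the highest group means, 8.92 and 8.89, ahead of 8.59 in males of bull 2, 8.47 in females of bull 3, and 8.25 and 8.14 in males of bulls 3 and 1, with overlap between all neighbours. Females averaged 8.76 ± 0.34 and males 8.32 ± 0.33 (SD, n = 9 each), a difference of 0.44 (SE 0.12, 95% confidence interval 0.18 to 0.69, adjusted p = 0.0193). By bull, the differences were 0.75, 0.34 and 0.22, none of which passed alone (adjusted p = 0.0523, 0.545 and 0.707). The call was lost without bull 1 (0.28, adjusted p = 0.225) and without the 4 arrays of wide spread (0.31, adjusted p = 0.121). Whether these losses reflect the arrays left out or the smaller number of arrays was not tested. The call was kept without any 1 array, with differences from 0.35, without male bull 1 replicate 2, to 0.51, without male bull 1 replicate 3.

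CYP17A1, the enzyme that leads from progestins to androgens, showed the most regular sex difference of the 7 (Bt.3985.1.S1_at). Its values in females were 7.92, 7.77 and 8.17 for bull 1, 8.26, 8.53 and 7.93 for bull 2, and 8.07, 8.26 and 7.98 for bull 3. In males they were 7.34, 7.46 and 7.16, then 7.68, 7.54 and 7.49, and then 7.76, 7.85 and 7.92. Within each of the 3 bulls all females were above all males, which held for 3.34% of all probe sets, although the females of bull 1 overlapped the males of bull 3. The females had a mean of 8.10 ± 0.23 and the males one of 7.58 ± 0.25 (SD, n = 9), which differ by 0.52 (SE 0.08, 95% confidence interval 0.35 to 0.69, adjusted p = 0.00014). This call held under every alternative run, with differences from 0.45 to 0.65. In the order of the group means the females of bulls 2, 3 and 1 came first, at 8.24, 8.10 and 7.95, followed by the males of bulls 3, 2 and 1, at 7.84, 7.57 and 7.32. Neighbours overlapped among the first 4 groups, and the males of bulls 3, 2 and 1 were separated from each other.

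Within bulls, CYP17A1 differed by 0.64 in bull 1 (adjusted p = 0.0115), 0.67 in bull 2 (adjusted p = 0.00904) and 0.26 in bull 3 (adjusted p = 0.388). The call in bull 1 was lost without female bull 1 replicate 3 (0.53, adjusted p = 0.0662) and without male bull 1 replicate 3 (0.55, adjusted p = 0.0558). It was also lost with the arrays of bull 1 fitted alone (0.64, adjusted p = 0.0706) and without the 4 arrays of wide spread (0.60, adjusted p = 0.0507). That in bull 2 was lost without female bull 2 replicate 2 (0.52, adjusted p = 0.0731). The test of whether the difference varied between bulls gave an unadjusted p of 0.0945 and an adjusted p of 1 by limma. It called 0 of the 24016 probe sets. A smaller difference in bull 3 was therefore not shown, and an equal one was not shown either.

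CYP19A1, the aromatase, was higher in females by its brightest probe set, Bt.4447.1.S1_at. Females had 8.17, 7.79 and 8.08 for bull 1, 7.73, 7.42 and 7.69 for bull 2, and 7.39, 7.68 and 7.62 for bull 3. Males had 7.60, 7.35 and 7.49, then 6.96, 6.99 and 6.78, and then 6.93, 7.52 and 6.92. All females were above all males in bulls 1 and 2, and in bull 3 male replicate 2 reached into the female range. The females of bull 1, with a mean of 8.01, were above the females of bulls 2 and 3, at 7.61 and 7.56, without overlap with the next group. The males of bulls 1, 3 and 2 followed at 7.48, 7.12 and 6.91, and these later neighbours overlapped. Females above males without overlap in at least 2 bulls were found for 7.73% of all probe sets. Female arrays averaged 7.73 ± 0.26 and male arrays 7.17 ± 0.32 (SD, n = 9), 0.56 apart (SE 0.09, 95% confidence interval 0.37 to 0.74, adjusted p = 0.000184). By bull the differences were 0.53, 0.70 and 0.44, of which that of bull 2 passed (adjusted p = 0.0546, 0.0123 and 0.127). The call in bull 2 was lost without female replicate 1 (0.64, adjusted p = 0.0691), female replicate 3 (0.66, adjusted p = 0.0623) or male replicate 3 (0.63, adjusted p = 0.0635) of that bull.

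The other 3 probe sets of CYP19A1 did not show this difference. Bt.4447.2.S1_a_at ranged from 3.94 to 4.47 in females and from 4.05 to 4.76 in males, and differed by -0.04 (95% confidence interval -0.20 to 0.12, adjusted p = 0.795). Bt.4447.3.A1_at and Bt.4447.3.S1_at lay between 2.20 and 2.78 on all arrays, near the lowest value tested, 1.89, and differed by -0.09 and -0.13 (adjusted p = 0.464 and 0.302). So near the lowest signals, a difference close to 0 does not show that the transcript is alike in both sexes. The interval of Bt.4447.2.S1_a_at, which is brighter than 36% of all probe sets, ends below 0.37, the lower bound of the brightest probe set. Over the 18 arrays the brightest probe set had correlations of 0.17, -0.18 and -0.50 with the others, which describes these arrays and was not tested. Averaged over its 4 probe sets, the gene did not pass (0.07, adjusted p = 0.318). Which transcript form each probe set reads was not analysed here.

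**Figure D2:**
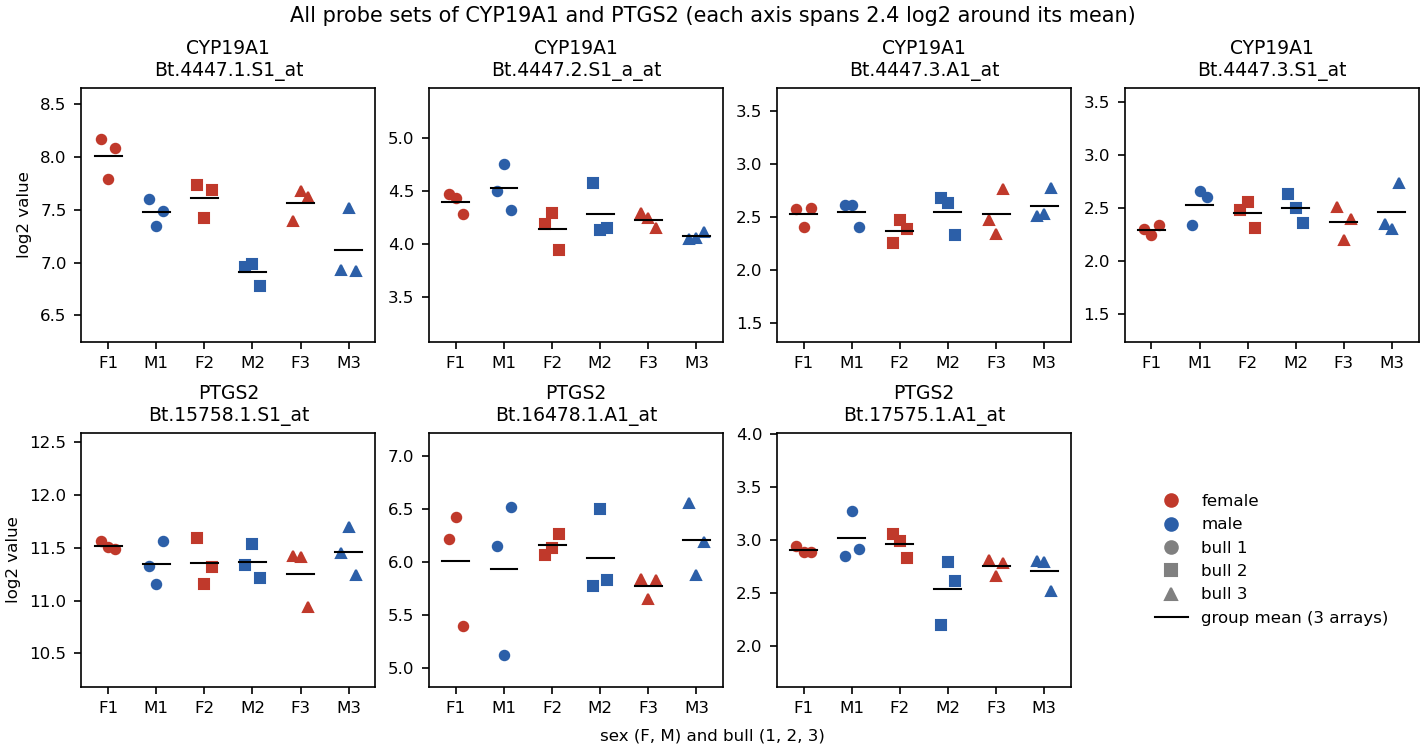
Log2 values of the 4 probe sets of CYP19A1 and the 3 of PTGS2 on every array, by sex and bull, with bars at the group means and equally long axes. Only the brightest probe set of CYP19A1, at left in the upper row, passed the test between the sexes.

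PTGS2, the inducible cyclooxygenase, did not pass the test between the sexes by any of its 3 probe sets. The brightest, Bt.15758.1.S1_at, exceeded 98% of all probe sets in signal. It stood at 11.56, 11.51 and 11.49 in females of bull 1, at 11.59, 11.16 and 11.32 in those of bull 2 and at 11.42, 11.41 and 10.94 in those of bull 3. Males had 11.33, 11.16 and 11.56, then 11.34, 11.54 and 11.21, and then 11.45, 11.70 and 11.24. The group means lay between 11.26, in females of bull 3, and 11.52, in females of bull 1, and all neighbours overlapped. The sexes had means of 11.38 ± 0.21 and 11.39 ± 0.18 (SD, n = 9), and the difference of -0.01 had a 95% confidence interval of -0.20 to 0.17 (adjusted p = 0.949). Bt.16478.1.A1_at ranged from 5.12 to 6.56 and differed by -0.08 (adjusted p = 0.829). Its lowest values, 5.12 and 5.39, were those of male bull 1 replicate 2 and female bull 1 replicate 3, both arrays of wide spread. Bt.17575.1.A1_at was dim, at 2.20 to 3.28, and differed by 0.12 (adjusted p = 0.378).

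PTGES, which completes prostaglandin E2, had the only difference toward males among the brightest probe sets of the 7 genes with a confidence interval that excludes 0 (Bt.8953.1.S1_at). Females had 8.80, 8.89 and 9.13 for bull 1, 9.28, 9.12 and 8.81 for bull 2, and 8.92, 8.80 and 8.74 for bull 3. Males had 9.09, 8.98 and 9.47, then 9.28, 9.29 and 8.97, and then 9.22, 9.06 and 9.07. All males of bull 3 were above all its females, a separation in at least 1 bull that 24.2% of all probe sets showed, and the sexes overlapped in the other bulls. The males of bulls 1, 2 and 3 had the highest group means, 9.18, 9.18 and 9.11, ahead of the females of bulls 2, 1 and 3 with 9.07, 8.94 and 8.82, and all neighbours overlapped. The female mean was 8.94 ± 0.19 and the male mean 9.16 ± 0.17 (SD, n = 9), with a difference of -0.22 (95% confidence interval -0.39 to -0.04). It did not pass (limma's adjusted p = 0.0856). Without male bull 1 replicate 2 it passed (-0.25, adjusted p = 0.0432), as it did without the 4 arrays of wide spread (-0.27, adjusted p = 0.0444).

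**Figure D3:**
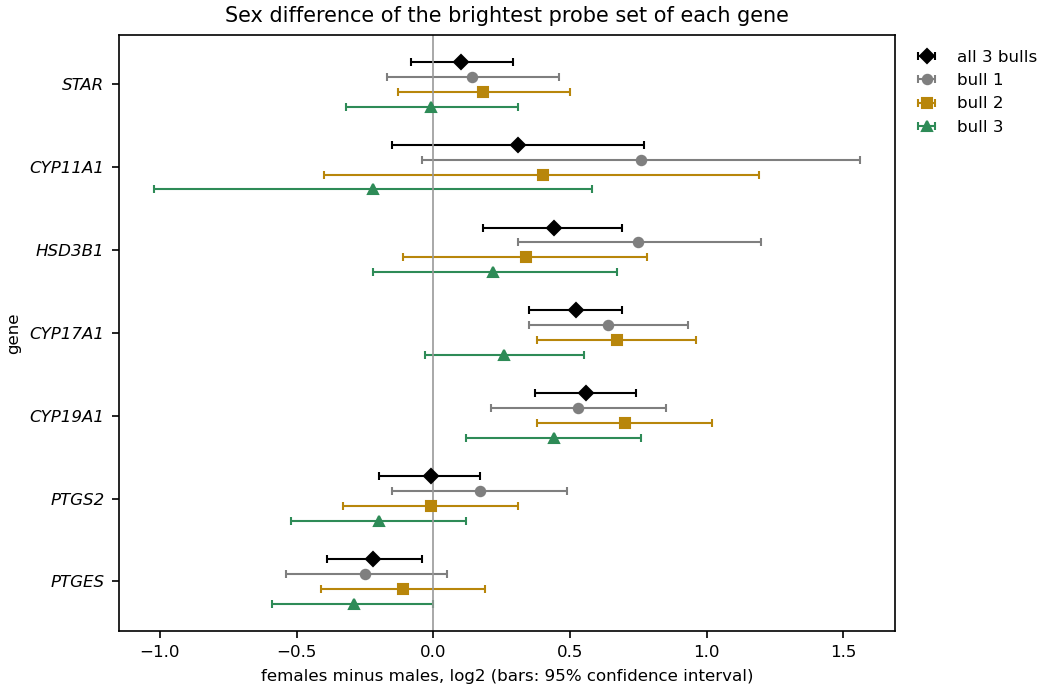
Females minus males on the log2 scale for the brightest probe set of each gene, averaged over the 3 bulls and within each bull, with 95% confidence intervals. The averages of HSD3B1, CYP17A1 and CYP19A1 lie at 0.44, 0.52 and 0.56, and the intervals of PTGES lie mostly below 0.

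Within single bulls, 1, 2 and 0 of the 12 probe sets passed for bulls 1, 2 and 3, where 4.2%, 3.13% and 4.18% of all probe sets passed. For bull 3, 1 member probe set, that of CYP19A1, had an unadjusted p under 0.05. The interaction of sex and bull was called by limma for 0 of the 24016 probe sets (0%), of which 2.73% had an unadjusted p under 0.05. Of the 12, only the dim PTGS2 probe set Bt.17575.1.A1_at was below 0.05 before adjustment (limma's adjusted p = 1), with differences of -0.11, 0.43 and 0.04 in bulls 1, 2 and 3.

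The bulls were compared next, over both sexes. CYP19A1 was higher in bull 1, by its brightest probe set, than in the other bulls. The means were 7.75 ± 0.33, 7.26 ± 0.40 and 7.34 ± 0.34 for bulls 1, 2 and 3 (SD, n = 6 arrays each). Bull 2 was lower than bull 1 by a difference of -0.49 (adjusted p = 0.03), where 1.52% of all probe sets passed, and bull 3 was lower than bull 1 by one of -0.40 (adjusted p = 0.0437), where 3.53% passed. Both comparisons share the arrays of bull 1. In each sex the mean of bull 1 was the highest, 8.01 in females and 7.48 in males, and the females of bull 1 did not overlap those of bull 2. Both calls were near the threshold: leaving out 1 array ended the first in 7 of 18 cases (adjusted p = 0.0521 to 0.0863) and the second in 14 of 18 (adjusted p = 0.0527 to 0.128). The 5′ minus 3′ difference of the control transcripts, a measure of RNA length, was lower in bull 3 (-1.268 to -0.359) than in most arrays of bull 1 (-0.441 to 0.447), and was -0.381 to -0.129 in bull 2. With it as a covariate neither call remained, with -0.46 for bull 2 minus bull 1 (adjusted p = 0.0515) and -0.31 for bull 3 minus bull 1 (adjusted p = 0.889). Without the 4 arrays of wide spread the differences were -0.52 and -0.37 (adjusted p = 0.0733 and 0.148), and averaged over the gene's probe sets they were -0.19 and -0.17 (adjusted p = 0.0972 and 0.113). The second call was kept in the 4 cases in which the array left out was replicate 2 of the females of bull 1 or 2, or of the males of bull 1 or 3. The first was lost when it was replicate 1 or 3 of the females of bull 1, replicate 1 or 2 of those of bull 2, replicate 1 of the males of bull 1, or replicate 1 or 3 of those of bull 2.

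No other member passed between bulls. Bulls 3 and 2 differed at none of the 12 probe sets, where 3.74% of all probe sets passed, and HSD3B1 alone had an unadjusted p under 0.05 there (-0.40, adjusted p = 0.149). CYP17A1 was lowest in bull 1, with means of 7.64, 7.91 and 7.97 for bulls 1, 2 and 3, and bull 3 minus bull 1 was 0.34 (adjusted p = 0.0618). CYP11A1 had means of 6.78, 7.11 and 7.32 in the same order, with no call (adjusted p = 0.291 for bull 3 against bull 1). PTGS2 and PTGES had bull means of 11.36 to 11.44 and 8.97 to 9.12.

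How the 7 genes varied together was examined within groups, by taking each array's value minus the mean of its group. The 21 pairs of genes were computed, with exact tests over all 46656 permutations of values within groups and Benjamini-Hochberg adjustment over the pairs. These correlations were examined after other values of these genes had been seen. By their brightest probe sets, HSD3B1, CYP11A1 and PTGS2 varied together from array to array. For PTGS2 that probe set had correlations of 0.33 with Bt.16478.1.A1_at and 0.09 with Bt.17575.1.A1_at over the 18 arrays. Those values were taken without subtracting group means and were not tested. The correlation of HSD3B1 with PTGS2 was r = 0.84 (rho = 0.78, exact permutation p = 0.000343 for r and 0.00184 for rho, adjusted 0.0036 and 0.0194). That of CYP11A1 with PTGS2 was r = 0.75 (rho = 0.82, exact permutation p = 0.000236 and 0.000214, adjusted 0.0036 and 0.0045). For CYP11A1 with HSD3B1 it was r = 0.81 (rho = 0.73, exact permutation p = 0.00446 and 0.0126, adjusted 0.0312 and 0.0884).

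Leaving out the 2 arrays farthest from the median of the first gene of each pair gave r = 0.83, 0.78 and 0.66 in that order, and the 14 arrays without a wide spread gave r = 0.88, 0.80 and 0.87. HSD3B1 and PTGES had r = 0.66, which did not pass after adjustment (exact permutation p = 0.0482, adjusted 0.243) and fell to r = 0.49 without the 2 farthest arrays. The remaining pairs did not pass by either coefficient. Among the 3 genes with a sex difference, CYP17A1 had r = -0.16 with HSD3B1 (exact permutation p = 0.671, adjusted 0.852) and r = -0.03 with CYP19A1 (exact permutation p = 0.899, adjusted 0.968). HSD3B1 and CYP19A1 had r = 0.40 and rho = 0.45 (exact permutation p = 0.0619 and 0.0672, adjusted 0.243 and 0.261). The within-group correlation with the difference between 5′ and 3′ signals of the control transcripts was -0.43 for CYP11A1, -0.24 for HSD3B1 and -0.07 for PTGS2. Without male bull 1 replicate 2 it was -0.18, -0.01 and 0.08, and its part in the correlations was not tested.

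**Figure D4:**
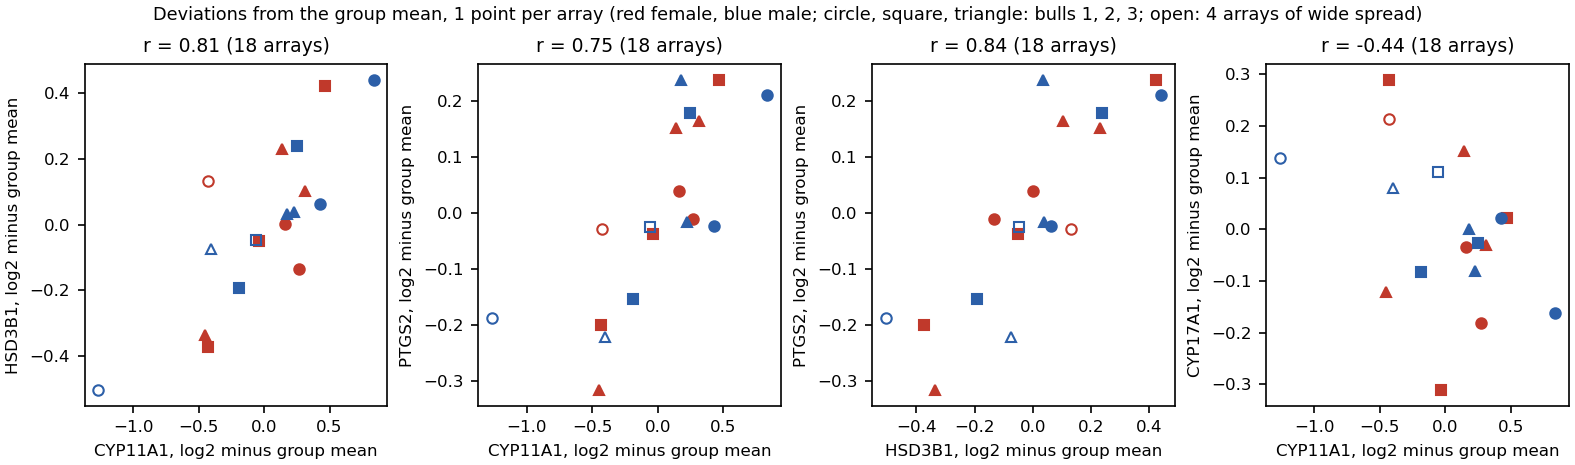
Deviation of each array from its group mean on the log2 scale for 4 pairs of genes, 1 point per array, with open points for the 4 arrays of wide spread. HSD3B1, CYP11A1 and PTGS2 rise together (r = 0.75 to 0.84), and CYP17A1 against CYP11A1 does not (r = -0.44).

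The genes whose values over all 18 arrays were most like those of each member were found by Pearson correlation. These figures are descriptions, since arrays share sex, bull and quality. CYP17A1 was most like FSCN1 (0.92), an actin-bundling protein, LYPD3 (0.91) and XPNPEP2 (0.91), an aminopeptidase, all higher in females by 0.45, 0.38 and 0.26. CYP19A1 was most like IRAK4 (0.95), a kinase of innate immune signalling, LAP3 (0.93), a leucine aminopeptidase, and ABRACL (0.93), higher in females by 0.35, 0.38 and 0.68. HSD3B1 had LAMP2 (0.89), a lysosomal membrane protein, FABP5 (0.86), a fatty acid binding protein, and PFKL (0.86), a phosphofructokinase. CYP11A1 had VAPA (0.92), a membrane protein of the endoplasmic reticulum, TCAF2 (0.88) and ADGRL2 (0.86), none of which differed between the sexes by the test (adjusted p = 0.853, 0.789 and 0.782). PTGS2 had GPAT3 (0.86), an enzyme of triglyceride synthesis, PLEKHO2 (0.84) and PFKFB3 (0.80), a regulator of glycolysis. PTGES had CYB5R3 (0.83), a cytochrome b5 reductase, SLC35G1 (0.82) and UGCG (0.82), which makes glucosylceramide. CYB5R3 and UGCG were higher in males, with differences of -0.35 and -0.32 (adjusted p = 0.000658 and 0.00428), and SLC35G1 did not pass (-0.34, adjusted p = 0.0742). STAR had the weakest likeness, with ACBD6 (0.69), HOOK2 (0.68) and IL17RB (0.67).

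The other genes of both pathways were taken from lists of 116 genes, of which 76 were measured, each by its brightest probe set. Between the sexes 13 of the 76 passed (17.1%, against 20.8% of all genes), 8 higher in females and 5 higher in males. The share is near the background. Their median difference was -0.01, the same as that of all genes.

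Of 30 further steroid enzymes 19 were measured, with 4 higher in females and 2 higher in males. AKR1C4, a reductase of steroids, was higher in females by 1.13 (2.18-fold, adjusted p = 2.45e-07), with values of 7.19 to 7.96 and a median of 7.53, against 6.05 to 6.67 and a median of 6.44 in males. All females were above all males, which held for 1.99% of all probe sets. Its 5 dimmer probe sets did not pass (-0.04 to 0.16), and as a member of a family of similar genes its identity is uncertain. HSD17B10, a mitochondrial dehydrogenase of steroids and other substrates that lies on the X chromosome, was higher in females by 0.51, and HSD3B7, an enzyme of bile acid synthesis, by 0.37 (adjusted p = 5.4e-06 and 0.000404). HSD17B8, a dehydrogenase with a role in mitochondrial fatty acid synthesis, was higher in males, with a difference of -0.53 (9.10 ± 0.12 against 9.63 ± 0.15, SD, n = 9, adjusted p = 1.16e-06). The remaining calls were named after their values were seen: SULT2B1, a cholesterol sulfotransferase, with 0.46, and SULT1E1, an oestrogen sulfotransferase, with -0.27. The call of SULT1E1 (adjusted p = 0.0428) was lost when any 1 of 13 of the 18 arrays was left out (adjusted p = 0.0532 to 0.0991).

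Among 23 of 28 genes of cholesterol supply, electron transfer and regulation, 2 were higher in females and 2 higher in males. LIPE, the hormone-sensitive lipase, differed by 0.35 (adjusted p = 0.00369) and MC2R, the corticotropin receptor, by 0.27 (adjusted p = 0.0499), each by its brightest of several probe sets, while the others did not pass (-0.03 to 0.09 for LIPE and -0.01 for MC2R). PRKACA, a catalytic subunit of the cyclic AMP dependent kinase, had -0.24 (adjusted p = 0.0034) and GATA4, a transcription factor, -0.22 (adjusted p = 0.0324). The call of LIPE was lost without bull 2 (0.31, adjusted p = 0.0854) and with its probe sets averaged (0.10, adjusted p = 0.149), and that of PRKACA without bull 2 or bull 3 (-0.25 and -0.21, adjusted p = 0.053 and 0.0816). Leaving out 1 array ended the call of MC2R in 15 of 18 cases (adjusted p = 0.0503 to 0.108) and that of GATA4 in 9 (adjusted p = 0.0512 to 0.0707). FDX1, the electron donor of CYP11A1, had 0.12 (adjusted p = 0.116), and NR5A1, a main regulator of steroid genes, had 0.04 (adjusted p = 0.813). Over the 3 bulls together FDX1 passed limma's F test (adjusted p = 0.0474). Its means were 10.92, 10.70 and 10.71 in bulls 1, 2 and 3, and no pair of bulls passed for it. Of the receptors of steroids 5 of 12 were measured, and PGRMC1, a membrane protein of progesterone signalling that lies on the X chromosome, was higher in females by 0.70 (9.77 ± 0.13 against 9.07 ± 0.16, SD, n = 9, adjusted p = 8.2e-07). Its dimmer probe set was higher in females by 0.33 (adjusted p = 0.00608). Of the 297 X-linked genes measured, 70% were higher in females, and 2 of the 3 X-linked genes of the lists, HSD17B10 and PGRMC1, were among them.

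None of the 13 measured genes of prostaglandin synthesis, out of 24 listed, passed between the sexes. Before adjustment 4 had a p under 0.05 in limma's test, and without moderation of the variances 0 passed and 2 had an unadjusted p under 0.05. The shares of all genes by these measures were not counted, so nothing is concluded from these numbers. The largest differences were 0.22 for AKR1B1, a reductase that makes prostaglandin F2 alpha, 0.18 for PTGS1, the constitutive cyclooxygenase, and -0.15 for TBXAS1, the thromboxane synthase (adjusted p = 0.125, 0.159 and 0.117). HPGD, the dehydrogenase that inactivates prostaglandins, was the only call over the 3 bulls among 6 measured genes of removal and transport. Its brighter probe set was higher in females by 1.11 (2.16-fold, adjusted p = 5.03e-07). It stood at 4.41 to 5.06 with a median of 4.74 in females and at 3.18 to 4.06 with a median of 3.51 in males. No values of the sexes overlapped, and 1.99% of all probe sets had all females above all males. The difference was 1.28, 1.16 and 0.88 in bulls 1, 2 and 3, and passed in each (adjusted p = 0.000361, 0.000739 and 0.00718). Within bull 1 males exceeded females in SLCO2A1, a prostaglandin transporter singled out here from its values, with a difference of -0.60 (adjusted p = 0.0488). This call was near the threshold, and the alternatives were not followed for this gene. Over the 3 bulls its difference was -0.23, which did not pass. The signal of the brighter HPGD probe set was dim, above 34% of all probe sets. The second probe set of HPGD, at 3.32 to 4.05, did not pass (0.11, adjusted p = 0.46). Among 10 measured receptors, RXRA, the partner of nuclear receptors that bind lipids, had -0.22 (adjusted p = 0.0238). That call was lost without female bull 1 replicate 2 (adjusted p = 0.0529) or male bull 2 replicate 1 (adjusted p = 0.0521), and without any 1 of the bulls (adjusted p = 0.0717 to 0.188).

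**Figure D5:**
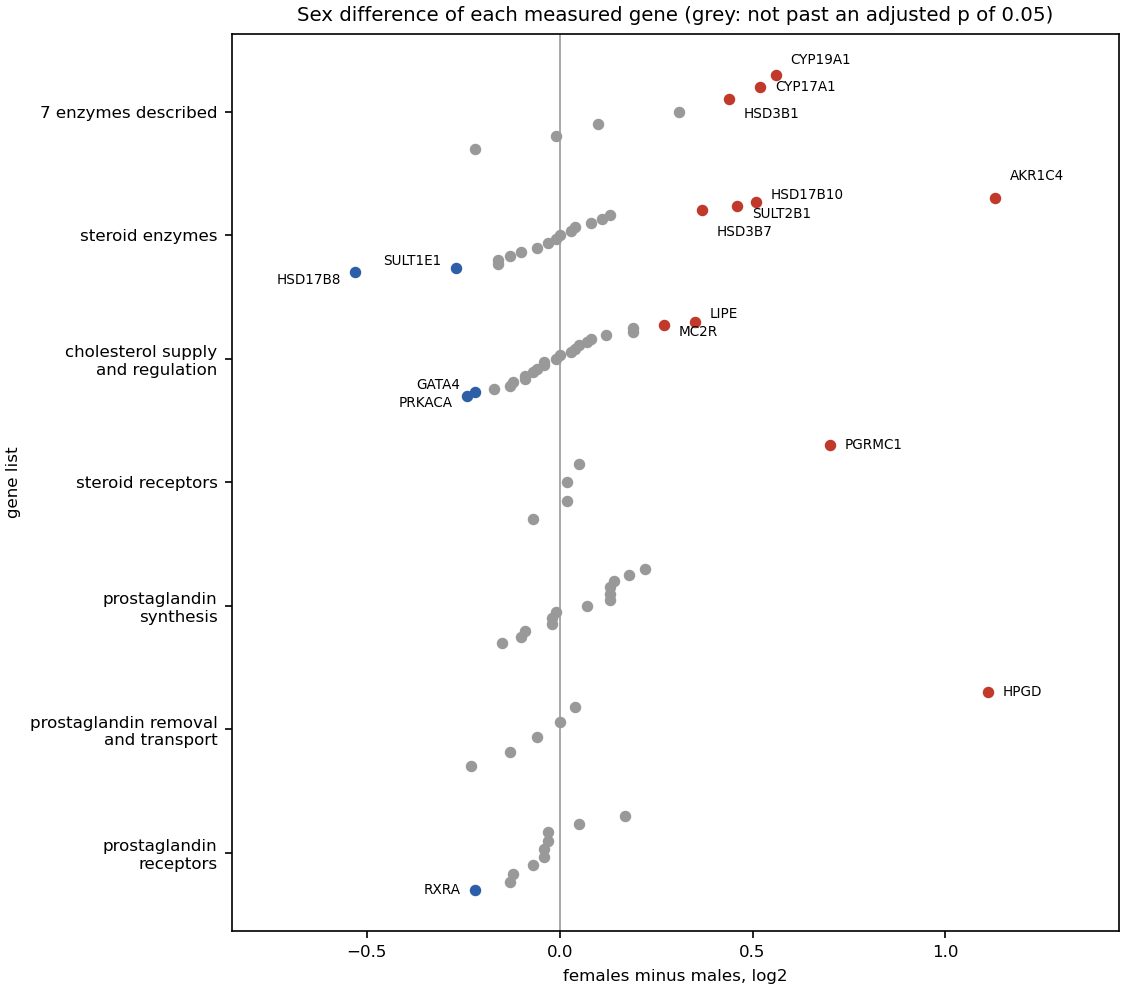
Females minus males on the log2 scale, 1 point per measured gene, by list, with genes past an adjusted p of 0.05 in colour and named. AKR1C4 and HPGD lie farthest to the female side, at 1.13 and 1.11, and HSD17B8 farthest to the male side, at -0.53.

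Between bulls few genes of these lists passed. None of the 76 passed between bulls 2 and 1, where 2.04% of all genes passed. An unadjusted p under 0.05 in limma's test was found for 15, all lower in bull 2, and 3 passed without moderation. The shares of all genes by these measures were not counted. The median difference of the 76 was -0.06, and that of all genes was -0.05. Bull 3 was lower than bull 1 in SOAT1, which esterifies cholesterol, by a difference of -0.34 (adjusted p = 0.0198) and in PTGR1, a prostaglandin reductase, by one of -0.44 (adjusted p = 0.0209), 2.63% of the genes against 3.6% of all genes. Bull 3 was also lower than bull 2 in SOAT1 (-0.49, adjusted p = 0.00131), with bull means of 11.96, 12.10 and 11.62. In all 4 genes passed between bulls 3 and 2, where 3.33% of all genes did, and bull 3 was higher in PRKACA, LTA4H, which makes leukotriene B4, and RXRA (0.26, 0.27 and 0.34, adjusted p = 0.0282, 0.0398 and 0.0223). With the 5′ and 3′ difference as a covariate none of these calls between bulls passed (adjusted p = 0.057 to 0.861), while the differences remained at -0.22 for SOAT1 and -0.42 for PTGR1 between bulls 3 and 1, and at -0.40 for SOAT1, 0.28 for PRKACA, 0.20 for LTA4H and 0.30 for RXRA between bulls 3 and 2.

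Markers of other cells were set beside these results, because CYP11A1, HSD3B1, CYP19A1 and STAR are also expressed by the cumulus and granulosa cells of the follicle. The receptors FSHR and LHCGR, and INHA, AMH and FOXL2, which mark granulosa cells, had means of 3.14 to 3.95 in both sexes. Their differences of -0.10 to 0.05 did not pass. They were singled out from the list, and their dim signals do not show that such cells were absent. Levels of the other markers that did not pass are not given here. Of the 24 measured markers 4 were higher in females, TIMP2 (0.70), TIMP1 (0.54), DCN (0.33) and COL1A1 (0.19), and COL1A2 was higher in males (-0.26). Of all genes, 11.5% were higher in females and 9.31% higher in males. The log2 of their summed level was 13.33 to 13.53 in females and 12.94 to 13.30 in males, with no overlap, while the median difference of the 24 markers was -0.02. TIMP1 (means of 11.89 and 11.35 in females and males) and TIMP2 (10.53 and 9.83) are among the brightest of the list. TIMP1, which lies on the X chromosome, and TIMP2 are inhibitors of matrix proteases that many cells express. Between bulls 2 and 1, where CYP19A1 was lower in bull 2, the matrix genes DCN and POSTN were higher there, by 0.84 and 2.16 (adjusted p = 0.00383 and 0.0197). They were the 2 calls among the 24 markers, where 2.04% of all genes passed. Of the 24, 5 were higher and 3 lower at an unadjusted p under 0.05, with a median difference of 0.05. The share of all genes at that threshold was not counted. Between bulls 3 and 1, where CYP19A1 was lower in bull 3, 0 of the 24 passed higher in bull 3 and 1 passed lower. Of all genes, 3.6% passed there, and the median difference of the 24 was 0.01. The part of such cells in the differences of the 7 genes was not tested.

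Among markers of the blastocyst's own cell types, those of the trophectoderm and the primitive endoderm passed in both directions and those of the inner cell mass toward females only. Over all genes, 11.5% were higher in females and 9.31% higher in males. Of 14 measured trophectoderm markers 4 were higher in females and 4 higher in males. The log2 of the summed level of the 14 was 14.32 to 14.57 in females and 14.23 to 14.53 in males. Higher in females were SSLP1 (0.75), IFNT2 (0.59) and TKDP1 (0.51), and PAG11 was higher in males (-0.48). All are secreted products of the trophoblast from gene families with similar copies, whose identity is uncertain. The remaining calls, named after their values were seen, were DLX3 (0.33) toward females and PAG2 (-0.68), TFAP2A (-0.54) and ASCL2 (-0.42) toward males. Of 5 measured inner cell mass markers 2 were higher in females, SPP1 (0.56) and STAT3 (0.28), with a median difference of 0.15. Of 11 markers of the primitive endoderm, RBP4, the retinol binding protein, was higher in females by 0.92 and GATA4 higher in males. How far the share of each cell type contributes to the differences of the 7 genes was not tested.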

How the data were processed

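Per the labels' protocols, RNA from 18 pools was amplified, biotin-labelled and measured on Affymetrix bovine arrays. The authors deposited 1 log2 value per probe set and array, a scale taken here from the range of 1.89 to 14.15. RMA and Partek 6.4 are named, per the submitters' processing notes, with no role given. RMA equalises the arrays, which hides a shift common to all transcripts. Arrays give no read depth; their number limits the precision.

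Of 24128 probe sets, 112 array controls were left out. In the platform annotation 13292 have 1 gene, 86 have several and 10638 have none. Gene numbers gave current symbols through RefSeq's ARS-UCD2.0 table (13263 matched, 29 did not), used only for names and X-linkage. In R 4.3.3, limma 3.58.1 (eBayes after lmFit, with 12 residual degrees of freedom) fitted the 6 group means over all probe sets and tested sex, sex within each bull, their interaction and the bulls. P-values were adjusted by Benjamini-Hochberg over all probe sets, with a threshold of 0.05, and intervals are 95% intervals of that fit. Pathway genes are represented by their brightest probe set. Named were every probe set of the 7 genes, up to 4 genes per list with the smallest p for sex and for bull among those that passed, and the 3 genes most like each member, with exceptions stated. The 7 genes and all lists were chosen with earlier results of these data known. The steps were tested on simulated data. Replicate numbers did not pair the arrays: deviations from the group means had correlations of -0.229 to 0.164 between same-numbered arrays (median 0.00145). No arrays were identical. Alternatives were another normalization, a filter, no moderation, an intensity trend, array weights, an additive model, a replicate block, bull as the replicate, 1 or averaged probe sets per gene, the arrays of 1 bull alone, and leaving out arrays or bulls. Leaving out 4 arrays with a relative spread over 0.25, and the 5′ and 3′ difference as a covariate, were chosen after seeing the data. Figures used matplotlib 3.10.9.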

Additional observations from a re-analysis of the deposited data

Results flagged for a closer look

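One value was far from the others of its sex. CYP11A1 on male bull 1 replicate 2 stood at 5.14, while the nearest of the 9 male values was 6.72, and the gap was 0.63 of the whole range, against a limit of 0.493. Of 24 sets of 9 arrays tested this was the only one past the limit, and chance alone passes about 1 in 20. The same array had a wide relative spread (0.335 log2), the highest 5′ minus 3′ difference of the control transcripts of all arrays (0.447) and the lowest male value of HSD3B1 (7.64). Its CYP17A1 value (7.46) was the highest of the males of bull 1.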

How the results depend on the processing

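The calls higher in females numbered 3 member probe sets in every fit without 1 array and 2 or 3 in the other alternatives, with HSD3B1 or CYP19A1 lost where stated above. HSD3B1 was also lost without moderation (adjusted p = 0.0611). Member probe sets higher in males numbered 0, but 1 (PTGES) with array weights and without the 4 arrays of wide spread, and 0 to 1 without single arrays. Interaction calls stayed at 0. With the replicate number as a block, in a fit without pairing in the data, the members called between bulls 3 and 1 fell from 1 to 0 (CYP19A1, adjusted p = 0.0677), the calls of SULT1E1 and MC2R were lost (adjusted p = 0.0557 and 0.0549), and no other named call changed.

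For sex in bull 1, where 1 member probe set passed, the number was 2 with quantile normalization, with averaged probe sets and without bull 3, 3 with the brighter 50% of probe sets, with an intensity trend and with 1 probe set per gene, 0 with the bull fitted alone and without the wide arrays, and 0 to 2 without single arrays. In bull 2 it was 1, not 2, with averaged probe sets and 1 to 2 without single arrays. In bull 3 it was 2, not 0, with array weights and 0 to 1 without single arrays. Between bulls 2 and 1 the number of 1 became 0 without moderation, with averaged probe sets, without the wide arrays and with the 5′ and 3′ covariate, 2 with array weights, and 0 to 1 without single arrays. Between bulls 3 and 1 the number of 1 became 0 under those 4 settings and without bull 2, 2 with the brighter 50% and with a trend, 3 with array weights, and 0 to 2 without single arrays.

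Pathway genes higher in males numbered 5, but 3 without bull 1, 1 without bull 2 or bull 3, and 2 to 5 without single arrays; fewer arrays entered these fits. Between bulls 2 and 1 their number of 0 became 3 with the brighter 50%, without moderation, with array weights and with 1 probe set per gene, 2 with a trend, an additive model and averaged probe sets, and 0 to 1 without single arrays. Between bulls 3 and 1 the number of 2 became 6 with the brighter 50%, 4 with a trend and averaged probe sets, 8 with array weights, 0 without bull 2 and with the covariate, and 1 to 4 without single arrays. Between bulls 3 and 2 the number of 4 became 7 with the brighter 50%, 9 with array weights, 0 with the covariate, and 1 to 6 without single arrays. Apart from the fits with fewer arrays or probe sets, the cause of these changes was not tested.

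Differences near 0 changed sign. That of PTGS2 Bt.15758.1.S1_at, -0.01, was 0.01 with averaged probe sets, 0.08 without bull 3, and -0.05 to 0.04 without single arrays. That of Bt.16478.1.A1_at was 0.10 without bull 3 and -0.21 to 0.03 without single arrays, and that of Bt.17575.1.A1_at was -0.03 without bull 2. That of CYP19A1 Bt.4447.2.S1_a_at was 0.03 with array weights, 0.07 without the wide arrays, 0.01 without bull 2 and -0.08 to 0.01 without single arrays. None was called under any of these settings. The dim probe sets of CYP19A1 and PTGS2, near the lowest values tested, limit what can be said of them.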

Other observations

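PGRMC1 was singled out after its values were seen. Its dimmer probe set, Bt.22290.1.S1_at, was lower in bull 3, with bull means of 5.85, 5.68 and 4.93 for bulls 1, 2 and 3, while its brighter one, Bt.12820.1.S1_at, had 9.34 in bull 3. Bull 3 minus bull 1 was -0.93 for the dimmer (limma's adjusted p = 5.72e-05, with no overlap of the 6 arrays of each bull) and -0.15 for the brighter (adjusted p = 0.332). Both probe sets were higher in females.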
